A study of Mus musculus with 18 samples.

Results

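The genes described here encode the enzymes with which liver conjugates or hydrolyses drugs, bile acids and steroids, together with NRF2 and its best-known antioxidant targets. Members were chosen by symbol in the platform annotation. The rule names no measured value, but it was set with earlier results of these data known. They are the genes whose symbol begins with Gsta, Gstm, Gstp, Gstt, Gstk, Gstz, Mgst, Ugt1a, Ugt2, Sult or Ces, apart from Gsta4, plus the NRF2 group of Nqo1, Gclc, Gclm, Hmox1, Srxn1, Txnrd1, Slc7a11, Nfe2l2 and Keap1. Of the 17097 genes measured, 60 met the rule, of which 52 are enzyme genes of 10 of the 11 families and 8 belong to the NRF2 group. Keap1 and the Gstz family were not analysed here. The enzyme genes comprise 17 glutathione transferases, 9 UDP-glucuronosyltransferases, 13 sulfotransferases and 13 carboxylesterases.

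Expression in the liver of female mice, 6 to 8 weeks old, was measured with 18 Affymetrix MG-430 PM arrays, whose probes are all perfect matches, in a study of transintestinal cholesterol excretion, the loss of cholesterol through the gut wall without passage through bile. That route was stimulated chronically by an NPC1L1 transgene in the liver, where the encoded cholesterol transporter takes cholesterol back from bile, and acutely by an antisense oligonucleotide (ASO) against ACAT2, an enzyme that esterifies cholesterol. Transgenic mice (n = 5) were set against wild-type mice (n = 5), with strain C57BL/6 given for both groups. Mice given the ACAT2 ASO (n = 4) were set against mice given a non-targeting control ASO (n = 4), with strain C57BL/6N given for both, so that an oligonucleotide was present in each group of this model. Samples carry numbers within a group, and nothing says whether each number stands for its own animal. All p-values therefore refer to the variation among these arrays, part of which may be technical. No source used here gives the promoter of the transgene, the number of transgenic lines, or the dose and length of ASO treatment. Knockdown of the ASO's target was not checked, as its transcript was not analysed here.

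Conjugation makes a compound more soluble in water and marks it for export into bile or urine. Glutathione transferases attach glutathione to electrophiles, UDP-glucuronosyltransferases attach glucuronic acid, and sulfotransferases attach sulfate, while carboxylesterases cleave esters and so expose the groups that the other enzymes use. NRF2, the transcription factor encoded by Nfe2l2, is held in the cytoplasm and degraded through KEAP1 until electrophiles or oxidants modify KEAP1. It then pairs with a small MAF protein at antioxidant response elements and raises genes for glutathione synthesis, quinone reduction and, in rodent liver, several glutathione transferases. The nuclear receptors CAR and PXR raise an overlapping set of the conjugation enzymes.

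The core of the antioxidant response element, TGACNNNGC or its reverse complement GCNNNGTCA, was searched on both strands of the promoter window of each member, taken from RefSeq on GRCm38.p6. A window spans 250 bases before and 50 bases after a gene's start. The core was found for 7 of the 52 members with a window, and in 10.9% of the 64 member windows, against 12.4% of all 32851 windows. Sequence outside this window was not searched, so these shares do not cover elements farther from the start. A match is a description of the letters and not a measured binding site. The 6 that lie upstream of the start are shown because they include genes of the NRF2 group as well as glutathione transferases, with the core in capitals, read 5′ to 3′ on the strand of the gene.
Gclm, chr3:122245407-122245447, plus strand, core beginning 134 bases before the start: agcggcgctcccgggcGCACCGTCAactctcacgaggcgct
Txnrd1, chr10:82859098-82859138, plus strand, core beginning 92 bases before the start: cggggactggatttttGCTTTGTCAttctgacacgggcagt
Nfe2l2, chr2:75704879-75704913, minus strand, core beginning 240 bases before the start: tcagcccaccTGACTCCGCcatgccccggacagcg
Mgst1, chr6:138140455-138140495, plus strand, core beginning 56 bases before the start: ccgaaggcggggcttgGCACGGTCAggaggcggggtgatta
Gstm5, chr3:107895796-107895836, plus strand, core beginning 42 bases before the start: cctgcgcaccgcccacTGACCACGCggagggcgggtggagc
Gstm7, chr3:107931719-107931759, minus strand, core beginning 129 bases before the start: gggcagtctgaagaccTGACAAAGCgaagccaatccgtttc
The seventh member with a core is Srxn1, where it lies after the start. Many of the enzyme families sit in arrays of neighbouring copies. The 7 Gstm members were contiguous, as were the 5 Ces1 members, and the 7 Ugt2 members lay in a run of 9 Ugt2 genes. Near-identical copies can share probes, so a value of a single copy in these arrays, in the Sult2a genes and in the Ugt1a genes, which share their last exons, is uncertain as to the copy measured. Probe sets marked as shared between genes or open to cross-hybridisation represented 6 and 3 members, respectively. The 6 were Gsta2, Gstm3, Ugt2b34, Ces1f, Ces3b and Srxn1, and the 3 were Gstm1, Sult6b1 and Ces5a.

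Values are deposited RMA log2 values, so that a difference of 1 is a doubling. The array medians differed between the models (4.61 to 4.65 in the transgenic model and 4.38 to 4.40 in the ASO model), and levels were compared only within a model. The mean of the 5 hepatocyte markers measured was between 13.1 and 13.3 on every array. The arrays farthest from the rest of their groups were wild type 2, control ASO 4 and ACAT2 ASO 1, which also had the highest mean of 9 macrophage markers in their groups (10.07, 9.22 and 9.61). Of the 60 members, 10 lay below 4.74, the level under which the lowest 40% of all genes fell, and for these the arrays carry little information.

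None of the 60 members passed a Benjamini-Hochberg adjusted p under 0.05 in limma in either comparison, against 39 of 17097 genes (0.228%) in transgenic liver and 102 (0.597%) after the ACAT2 ASO. Gsta4, which the rule leaves out by name, did pass after the ACAT2 ASO (limma adjusted p = 0.0334). At an unadjusted p under 0.05 there were 8 members in transgenic liver, 4 higher and 4 lower, where 10.9% of all genes met that threshold (13.3% of members). After the ACAT2 ASO there were 9, all lower, against 13.3% of all genes in either direction and 7.63% lower (15% of members). The median member differed by 0.00012 in transgenic liver, beside 0.0058 over all genes, with 30 of 60 above 0 where 52.6% of all genes were. After the ACAT2 ASO the median member differed by -0.045, beside -0.00056 over all genes, and 37 members lay below 0 (61.7%, against 50.3% of all genes). Changes of at least 1.5-fold were seen in 1 member in transgenic liver (1.67%, against 0.357% of all genes). After the ACAT2 ASO they were seen in 7, all lower (11.7%, against 0.696% of all genes). Of these 7, Sult2a2 and Sult3a1 had intervals that took in 0. Members also varied more within groups than all genes (median residual SD 0.180 against 0.111). Groups did not overlap in 2 members in the transgenic model (3.33%, against 2.22% of all genes). In the ASO model they did not overlap in 4 (6.67%, against 9.05% of all genes). A p above the threshold does not show that the groups were alike, and 95% intervals are therefore given.

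**Figure D1:**
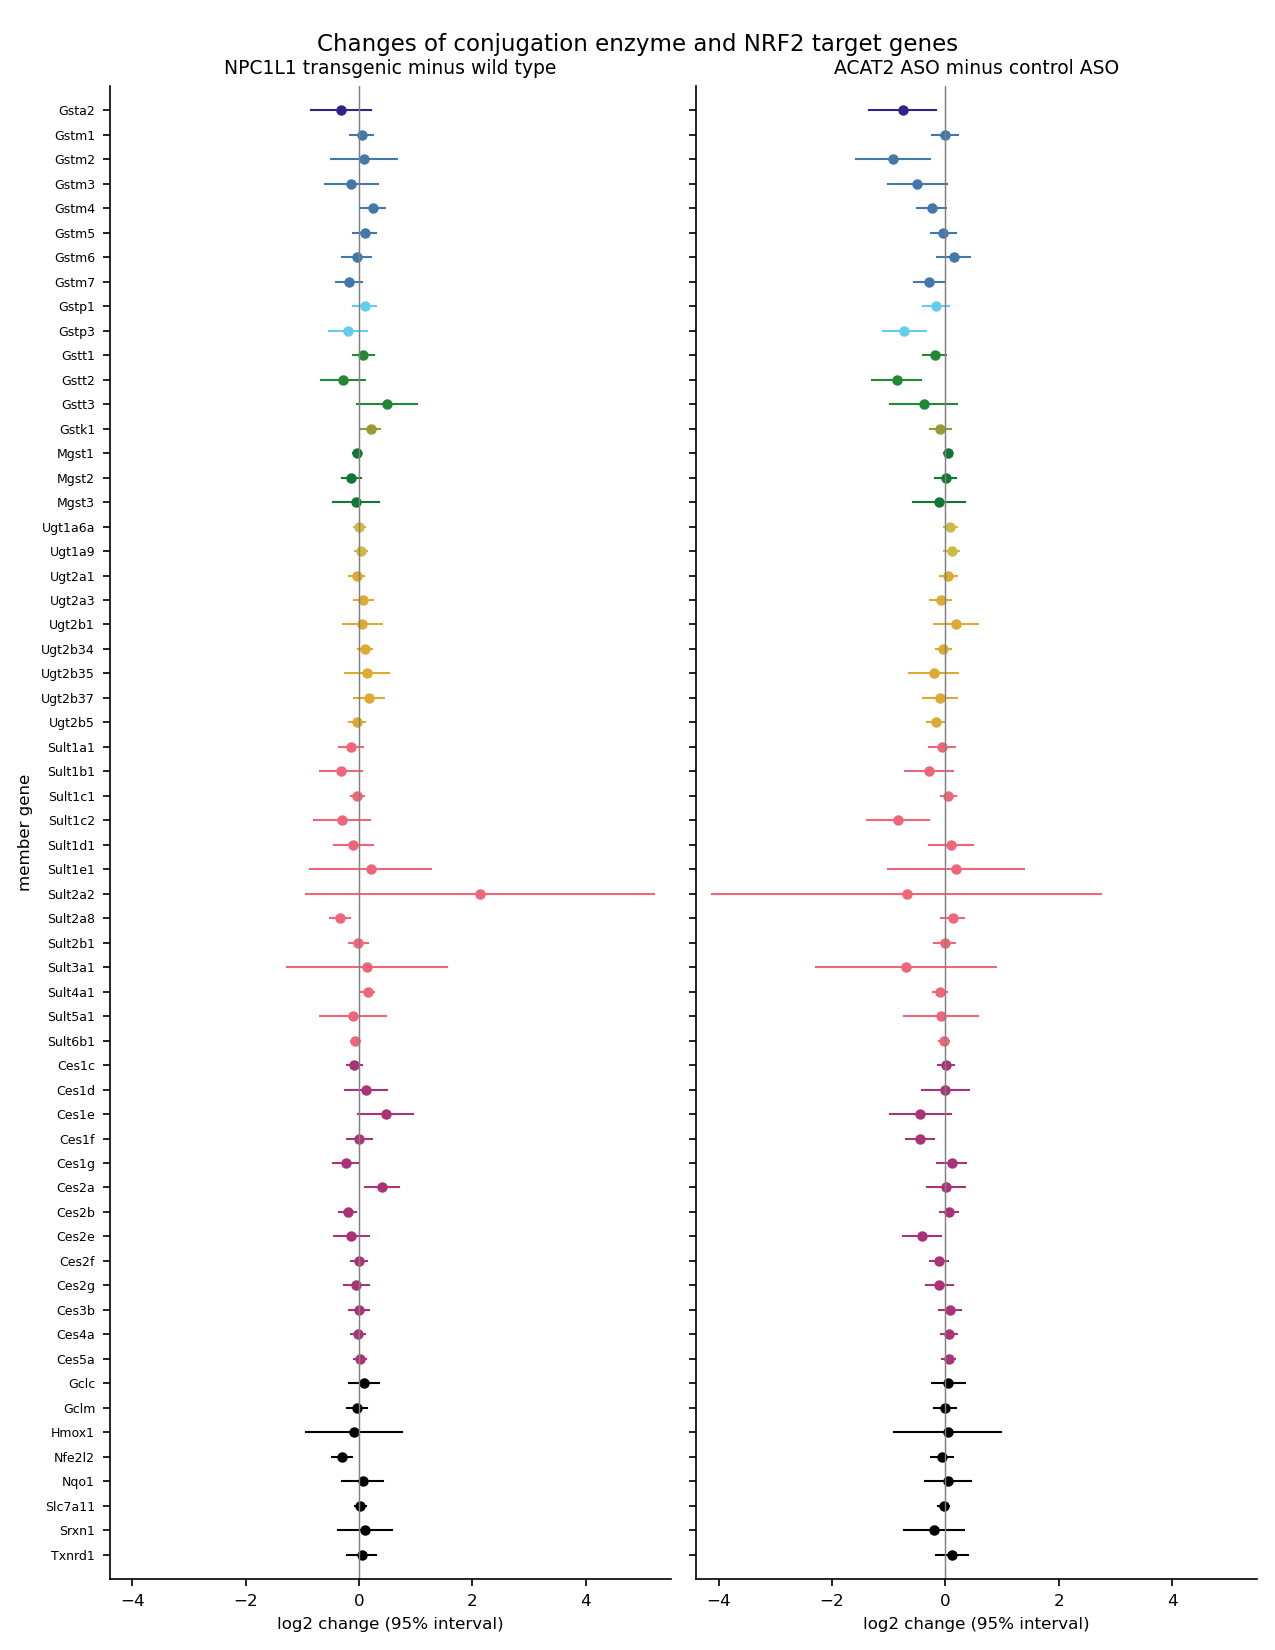
Log2 change of each of the 60 members in NPC1L1 transgenic against wild-type liver (left, n = 5 and 5) and after the ACAT2 ASO against the control ASO (right, n = 4 and 4), with limma's 95% interval as a line and families in colours. Most members lie near 0 in both panels, Gsta2, Gstm2, Gstp3, Gstt2 and Sult1c2 lie between -0.93 and -0.72 at right, and the intervals of Sult2a2 and Sult3a1 are the widest.

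Glutathione transferases made up 5 of the 9 members with an unadjusted p under 0.05 after the ACAT2 ASO. Of the 17 in the family, 14 lay below 0, with a median of -0.19, and among the 13 cytosolic enzymes of the alpha, mu, pi and theta classes 12 lay below 0, with a median of -0.29. The 5 genes were all lower, and 0 were called after adjustment. The mean over the 17 genes ranged from 8.89 to 9.28 on the control ASO arrays and from 8.71 to 8.95 on the ACAT2 ASO arrays, which overlap.

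Gstt2, a theta-class enzyme, read 10.30, 9.77, 9.93 and 9.94 on the control ASO arrays and 8.24, 9.54, 9.35 and 9.39 on the ACAT2 ASO arrays. The groups did not overlap, and ACAT2 ASO 1 stood well below the other treated arrays. The difference was -0.86 ± 0.20 (SE), or 1.81-fold lower, with an interval from -1.29 to -0.43 and an adjusted p of 0.0635 in limma, the smallest of any member in this comparison. It was -0.56 without ACAT2 ASO 1, where the adjusted p was 0.0491, and over all alternative settings the adjusted p ranged from 0.0292 to 0.234. The other theta-class genes, Gstt1 and Gstt3, differed by -0.19 (interval -0.39 to 0.01) and -0.38 (interval -0.98 to 0.21), or by -0.11 and -0.12 without ACAT2 ASO 1.

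Gstp3, a pi-class gene, read 7.36, 7.38, 6.81 and 6.70 on the control ASO arrays and 6.13, 6.55, 6.40 and 6.28 on the ACAT2 ASO arrays. Every treated array lay below every control array. The difference was -0.72 ± 0.18, with an interval from -1.11 to -0.34 and an adjusted p of 0.0797. Gstp1, with a mean of 12.07 ± 0.11 (SD, n = 4) after the control ASO, differed by -0.16 (interval -0.39 to 0.07, adjusted p = 0.583), and leaving out ACAT2 ASO 1 gave -0.31, while leaving out ACAT2 ASO 4 gave -0.07.

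Among the mu-class genes Gstm2 differed most. It read 7.88, 8.26, 7.41 and 8.91 on the control ASO arrays and 7.27, 7.71, 6.82 and 6.94 on the ACAT2 ASO arrays, so that control ASO 3 lay within the treated range. The difference was -0.93 ± 0.31, or 1.91-fold lower (interval -1.58 to -0.28, adjusted p = 0.174), and it was -0.67 without control ASO 4, the highest array. Gstm7 differed by -0.29 (interval -0.55 to -0.03, adjusted p = 0.318), while a second probe set of that gene differed by -0.06. Gstm1, at 11.87 ± 0.16 (SD, n = 4) after the control ASO, differed by -0.01 (interval -0.23 to 0.21). Its other probe sets differed by -0.05, 0.11 and 0.21. Gstm3 and Gstm4 differed by -0.49 and -0.24 (-0.15 for Gstm4 without ACAT2 ASO 4), Gstm5 by -0.04, and Gstm6 was the only cytosolic member above 0, at 0.15 (interval -0.14 to 0.43).

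Gsta2, the alpha-class member, is represented by a probe set marked as shared between genes. It read 10.15, 9.07, 8.48 and 9.40 on the control ASO arrays and 8.41, 8.52, 8.35 and 8.83 on the ACAT2 ASO arrays. The treated arrays were close together and the control arrays spread widely, with control ASO 3 among the treated values. The difference was -0.75 ± 0.28 (interval -1.35 to -0.16, adjusted p = 0.244), and the gene's other probe set differed by -0.95 (adjusted p = 0.119 over all probe sets). Without control ASO 1 the difference was -0.46. Gsta4, another alpha-class gene, which conjugates lipid aldehydes and is not among the members, fell from 8.77 ± 0.38 to 7.78 ± 0.50 (log2 change -1.00 ± 0.21, adjusted p = 0.0334).

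Among the membrane-bound enzymes 2 of 3 lay above 0. Mgst1, which reduces lipid peroxides and conjugates electrophiles at membranes, read 13.17, 13.14, 13.13 and 13.16 after the control ASO and 13.18, 13.21, 13.21 and 13.22 after the ACAT2 ASO. The groups did not overlap, but the difference was 0.05 (interval -0.02 to 0.13, adjusted p = 0.541) at values near the top of the scale. The gene's other probe set, at a mean of 4.26, differed by 0.32 ± 0.11 (adjusted p = 0.198 over all probe sets), and the mean of both by 0.19. Mgst2 and Mgst3 differed by 0.01 and -0.11, and Gstk1, a kappa-class enzyme of mitochondria and peroxisomes, by -0.09 (interval -0.28 to 0.10).

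**Figure D2:**
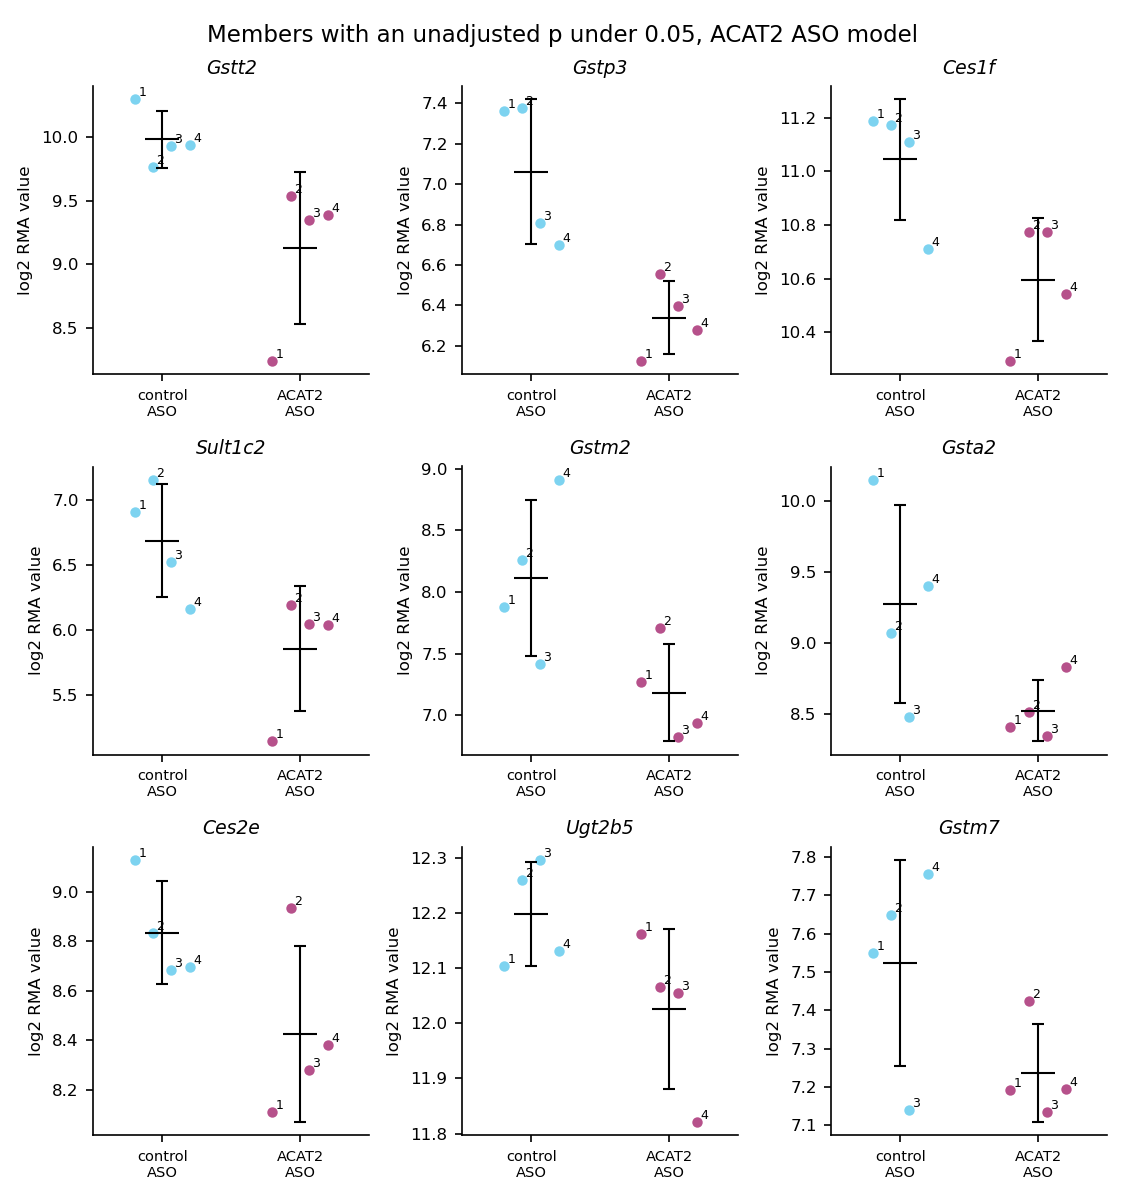
RMA log2 values of the 9 members with an unadjusted p under 0.05 after the ACAT2 ASO, on each control ASO array and each ACAT2 ASO array (points, numbered by replicate), with the group mean (bar) and SD (whiskers, n = 4). Only Gstt2 and Gstp3 show groups that do not overlap, and each panel has its own axis, which does not start at 0.

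Among the sulfotransferases after the ACAT2 ASO, 9 of 13 lay below 0, with a median of -0.06 and 0 called. Sult1c2, a cytosolic sulfotransferase, read 6.91, 7.16, 6.53 and 6.16 on the control ASO arrays and 5.14, 6.19, 6.05 and 6.04 on the ACAT2 ASO arrays. Control ASO 4 lay just below ACAT2 ASO 2, and ACAT2 ASO 1 was the lowest array. The difference was -0.83 ± 0.26, or 1.78-fold lower (interval -1.39 to -0.28, adjusted p = 0.150). Sult1a1, the main phenol sulfotransferase of liver, differed by -0.06 (interval -0.29 to 0.17), Sult2a8, which sulfates bile acids, by 0.13 (interval -0.07 to 0.33), and Sult1b1, which sulfates thyroid hormone, by -0.29 (interval -0.71 to 0.13, or -0.13 without control ASO 1). Sult1d1 differed by 0.10 (interval -0.28 to 0.48) and Sult4a1 by -0.09 (interval -0.22 to 0.04).

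Carboxylesterases after the ACAT2 ASO had 8 of 13 members above 0 and a median of 0.01, and the 2 with an unadjusted p under 0.05 were both lower. Ces1f, a hepatocyte triglyceride hydrolase, read 11.19, 11.17, 11.11 and 10.71 on the control ASO arrays and 10.29, 10.77, 10.78 and 10.54 on the ACAT2 ASO arrays. Only control ASO 4 lay within the treated range. The difference was -0.45 ± 0.12 (interval -0.70 to -0.20, adjusted p = 0.0914), and without control ASO 4 it was -0.56 with an adjusted p of 0.0288, in a range from 0.0161 to 0.249 over the alternative settings. Ces2e read 9.13, 8.83, 8.68 and 8.69 against 8.11, 8.93, 8.28 and 8.38, a difference of -0.41 ± 0.16 (interval -0.75 to -0.07, adjusted p = 0.270), with ACAT2 ASO 2 inside the control range. Ces1c and Ces1d, which hydrolyse esters in plasma and in the liver cell, differed by 0.01 (interval -0.14 to 0.16) and 0.00 (interval -0.41 to 0.41), and Ces3b by 0.08 (interval -0.12 to 0.27). Ces1e differed by -0.44 (interval -0.98 to 0.10), and by -0.21 without control ASO 1. Ces4a, a dim gene, did not overlap between the groups, with a difference of 0.06 (interval -0.07 to 0.20).

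Of the 9 glucuronosyltransferases 5 lay below 0 after the ACAT2 ASO, with a median of -0.03 and 0 called. Ugt1a6a and Ugt1a9, which conjugate phenols, read 12.38 ± 0.05 and 12.14 ± 0.04 after the control ASO and differed by 0.09 (interval -0.02 to 0.20) and 0.11 (interval -0.02 to 0.24) after the ACAT2 ASO. Ugt2b5, one of the main Ugt2b enzymes of mouse liver, read 12.10, 12.26, 12.30 and 12.13 against 12.16, 12.07, 12.05 and 11.82. These groups overlapped, and the difference was -0.17 ± 0.07 (interval -0.32 to -0.02, adjusted p = 0.305). Ugt2b1 differed by 0.19 (interval -0.20 to 0.57), Ugt2b34 by -0.03 and Ugt2b35 by -0.21 (interval -0.64 to 0.22), the last of which was -0.02 without ACAT2 ASO 4. The 9 genes spanned -0.21 to 0.19 in this comparison and -0.04 to 0.17 in transgenic liver, where 0 of them had an unadjusted p under 0.05.

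ACAT2 ASO 1, control ASO 4 and wild type 2 stand apart from their groups. A fit without these arrays was chosen after seeing the data. In it Gstt2 differed by -0.58 (adjusted p = 0.0842), Gstp3 by -0.77 (adjusted p = 0.139), Ces1f by -0.46 (adjusted p = 0.0734), Sult1c2 by -0.77 and Gstm2 by -0.69. Gsta2 at -0.67, Ces2e at -0.35 and Gstm7 at -0.19 then had an unadjusted p above 0.05. Ugt2b5 lay between -0.24 and -0.10 over all alternative settings.

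Markers of liver zones and of other cell types were read beside these values in the ASO model. The mean of the 5 periportal hepatocyte markers measured was between 9.63 and 9.81 on the control ASO arrays and between 9.25 and 9.50 on the ACAT2 ASO arrays, with 5 of 5 genes below 0 and a median of -0.39, and 1 of them, Pck1, below the low level. The 6 pericentral markers had a median of 0.10 and overlapping means, although 1 of them, Slc1a2, differed by -0.52 ± 0.12 with groups that did not overlap (adjusted p = 0.0563). All 9 macrophage markers lay above 0 after the ACAT2 ASO, with a median of 0.41 and means of 7.88 to 9.22 after the control ASO and 7.87 to 9.61 after the ACAT2 ASO. These macrophage means overlapped. The mean of the 5 bile duct cell markers was between 4.17 and 4.81 after the control ASO and between 4.08 and 4.14 after the ACAT2 ASO, with 4 of 5 below 0 and a median of -0.08. In that list 4 genes lay below the low level, among them Krt19 at -1.12 (adjusted p = 0.170). In these 4 marker lists 0 genes were called. The part of these markers in the lower glutathione transferase values was not tested, and in whole liver RNA fewer cells of a type and less RNA per cell cannot be told apart.

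In transgenic liver the members with an unadjusted p under 0.05 came from several families and lay on either side of 0. Sult2a8, the bile acid sulfotransferase, read 12.17, 11.87, 11.99, 12.13 and 12.23 on the wild-type arrays and 11.74, 11.83, 11.79, 11.61 and 11.76 on the transgenic arrays. Every transgenic array lay below every wild-type array, by a narrow margin at wild type 2. The difference was -0.33 ± 0.08 (interval -0.51 to -0.15), and its adjusted p of 0.118 in limma was the smallest of any member in this comparison. Over the alternative settings its adjusted p ranged from 0.0755 to 0.285, and without wild type 2 the difference was -0.38.

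Gstk1 read 10.47, 10.19, 10.35, 10.49 and 10.40 on the wild-type arrays and 10.51, 10.71, 10.62, 10.59 and 10.51 on the transgenic arrays. The groups did not overlap, though the nearest arrays were close, and the difference was 0.21 ± 0.08 (interval 0.04 to 0.38, adjusted p = 0.342), or 0.16 without wild type 2. The other glutathione transferases spread around 0, with 8 of 17 above it and a median of -0.04. Gstm4 differed by 0.24 (interval 0.01 to 0.47, adjusted p = 0.434), and Gstm7 by -0.18 (interval -0.41 to 0.05). Gstt3 read 8.83, 7.49, 8.06, 8.24 and 7.45 on the wild-type arrays and 8.38, 8.49, 8.79, 8.66 and 8.21 on the transgenic arrays, a difference of 0.49 (interval -0.04 to 1.03) within overlapping groups. Gstt2, Gstp3 and Gsta2 lay below 0 here too, at -0.28 (interval -0.66 to 0.11), -0.20 (interval -0.54 to 0.15) and -0.32 (interval -0.85 to 0.21). With single arrays left out, Gsta2 lay between -0.47 (without transgenic 5) and -0.18 (without transgenic 1). The other probe set of Gsta2 differed by -0.56 ± 0.24 in transgenic liver and was not called over all probe sets. Gstm1, Gstp1, Gstt1 and Mgst1 differed by 0.05, 0.10, 0.08 and -0.04, with Mgst2 at -0.14 and Mgst3 at -0.06.

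The carboxylesterases of transgenic liver had 6 of 13 members above 0. Ces2a read 9.19, 9.24, 9.37, 9.57 and 9.86 on the wild-type arrays and 9.69, 9.96, 9.99, 10.05 and 9.54 on the transgenic arrays, so that the groups overlapped through wild type 5 and transgenic 5. The difference was 0.40 ± 0.14, or 1.32-fold higher (interval 0.10 to 0.70, adjusted p = 0.291). Ces1g, a lipid-handling esterase, differed by -0.24 (interval -0.47 to -0.01, adjusted p = 0.434) and Ces1e by 0.47 (interval -0.02 to 0.95). Ces2b differed by -0.20 (adjusted p = 0.283) at a level below 4.74. Ces1c, Ces1d, Ces3b and Ces1f differed by -0.09, 0.12, 0.00 and 0.01.

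Of the other sulfotransferases in transgenic liver, Sult1b1 differed by -0.32 (interval -0.70 to 0.05), Sult1c2 by -0.30 (interval -0.80 to 0.19, or -0.12 without wild type 3) and Sult1a1 by -0.14 (interval -0.35 to 0.06). Sult4a1, a gene known from brain, differed by 0.15 (interval 0.04 to 0.27) at a level below 4.74, and its other probe set differed by -0.07. Among the glucuronosyltransferases, Ugt1a6a and Ugt1a9 differed by 0.01 and 0.04, Ugt2b34 by 0.10 (interval -0.02 to 0.22), Ugt2b5 by -0.04 and Ugt2b37, a dim gene, by 0.17.

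**Figure D3:**
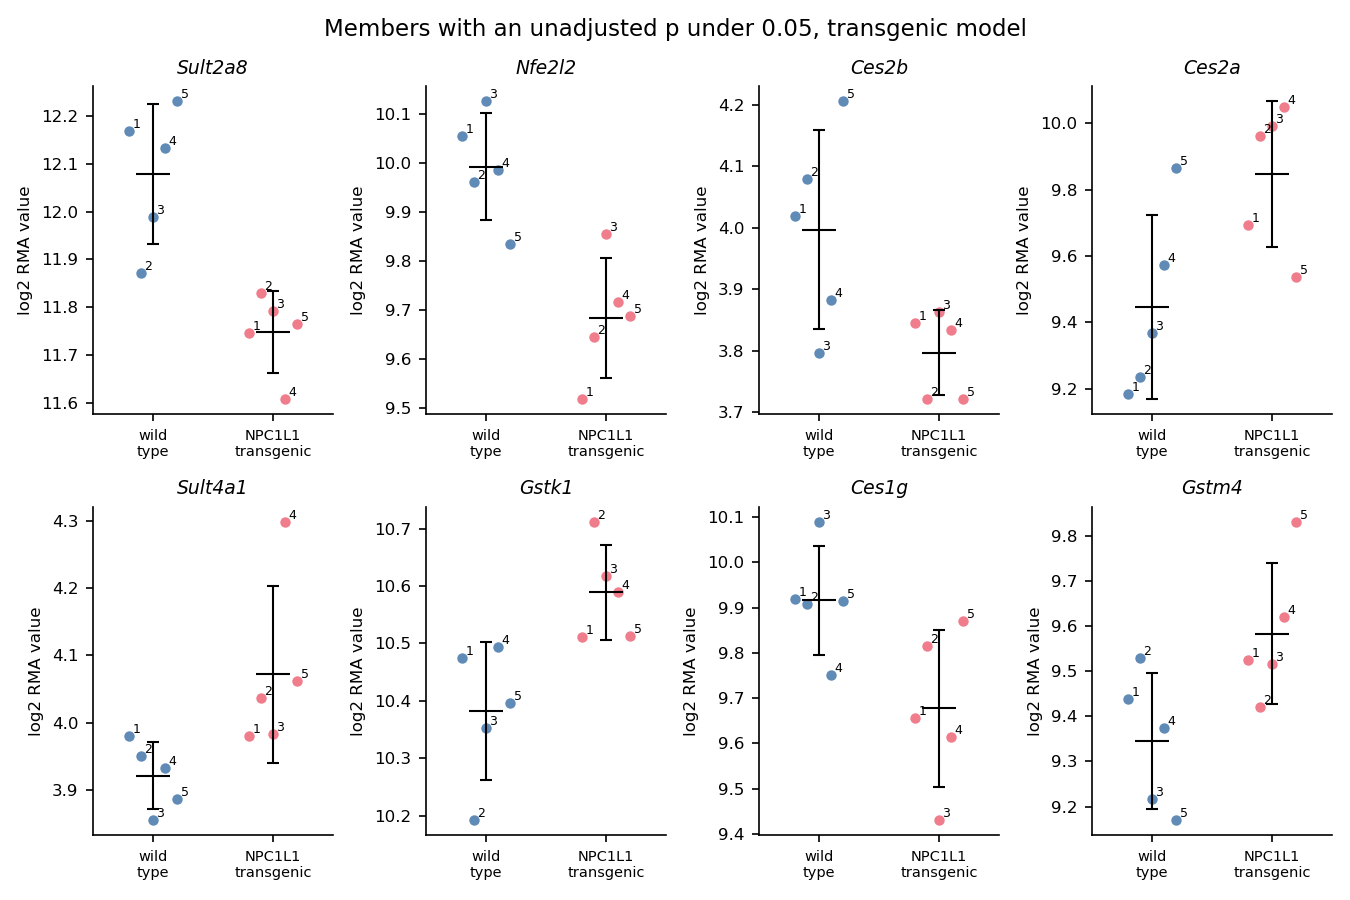
RMA log2 values of the 8 members with an unadjusted p under 0.05 in the transgenic model, on each wild-type and each transgenic array (points, numbered by replicate), with the group mean (bar) and SD (whiskers, n = 5). Groups do not overlap for Sult2a8 and Gstk1, and Ces2b and Sult4a1 lie at low levels; each panel has its own axis, which does not start at 0.

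Of the 8 genes of the NRF2 group, 5 lay above 0 in transgenic liver (median 0.03) and 4 after the ACAT2 ASO (median 0.02), with 0 called in either. Nqo1, which reduces quinones and is a standard readout of NRF2 activity in mouse liver, read 7.17, 7.51, 6.98, 6.83 and 6.61 on the wild-type arrays and 6.69, 7.11, 7.20, 6.93 and 7.49 on the transgenic arrays, a difference of 0.06 (interval -0.30 to 0.42). It read 5.64, 5.95, 5.18 and 5.86 after the control ASO and 5.74, 5.65, 5.60 and 5.83 after the ACAT2 ASO, a difference of 0.05 (interval -0.36 to 0.45). The ranges overlapped fully in each model. Gclc and Gclm, the subunits of the enzyme that limits glutathione synthesis, differed by 0.09 (interval -0.17 to 0.35) and -0.03 (interval -0.21 to 0.14) in transgenic liver. After the ACAT2 ASO they differed by 0.05 (interval -0.24 to 0.34) and 0.00 (interval -0.20 to 0.19). Txnrd1, which keeps thioredoxin reduced, differed by 0.04 (interval -0.21 to 0.30) and 0.12 (interval -0.16 to 0.41). Slc7a11, the cystine importer, lay below the low level of 4.74 in all groups, at 3.24 ± 0.07 in wild type and 3.59 ± 0.03 after the control ASO.

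Nfe2l2 itself was the member of the NRF2 group with the smallest p. It read 10.06, 9.96, 10.13, 9.99 and 9.83 on the wild-type arrays and 9.52, 9.64, 9.85, 9.72 and 9.69 on the transgenic arrays, with transgenic 3 just inside the wild-type range. The difference was -0.31 ± 0.08 (interval -0.48 to -0.13, adjusted p = 0.148). A second probe set of the gene, at a mean of 6.27 against 9.57 for the first, differed by 0.22 ± 0.15, in the other direction. The mean of both probe sets, which weights them equally, differed by -0.04. After the ACAT2 ASO Nfe2l2 differed by -0.06 (interval -0.25 to 0.14).

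Hmox1, which breaks down haem and is abundant in macrophages that recycle it, varied more between arrays of a group than between groups. It read 6.47, 8.37, 7.65, 6.79 and 6.65 on the wild-type arrays and 6.74, 6.44, 6.63, 7.94 and 7.75 on the transgenic arrays, a difference of -0.09 (interval -0.93 to 0.76). After the control ASO it read 6.20, 5.84, 5.94 and 7.45 and after the ACAT2 ASO 7.14, 6.11, 6.08 and 6.28, a difference of 0.04 (interval -0.91 to 0.99), or 0.41 without control ASO 4 and -0.20 when ACAT2 ASO 1 was left out. The high arrays were those with the highest means of the macrophage markers, namely wild type 2 (10.07) and wild type 3 (9.25), transgenic 5 (9.55) and transgenic 4 (9.40), ACAT2 ASO 1 (9.61) and control ASO 4 (9.22). The part of macrophage content in these values was not tested. Srxn1, which repairs oxidised peroxiredoxins, was also highest on wild type 2 (7.94), transgenic 5 (7.65), ACAT2 ASO 1 (6.22) and control ASO 4 (6.86). It differed by 0.11 (interval -0.36 to 0.58) in transgenic liver, and by 0.29 without wild type 2, and by -0.21 (interval -0.74 to 0.32) after the ACAT2 ASO, or 0.05 without control ASO 4. Its 3 other probe sets spanned -0.02 to 0.17 in transgenic liver and -0.18 to 0.18 after the ACAT2 ASO.

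**Figure D4:**
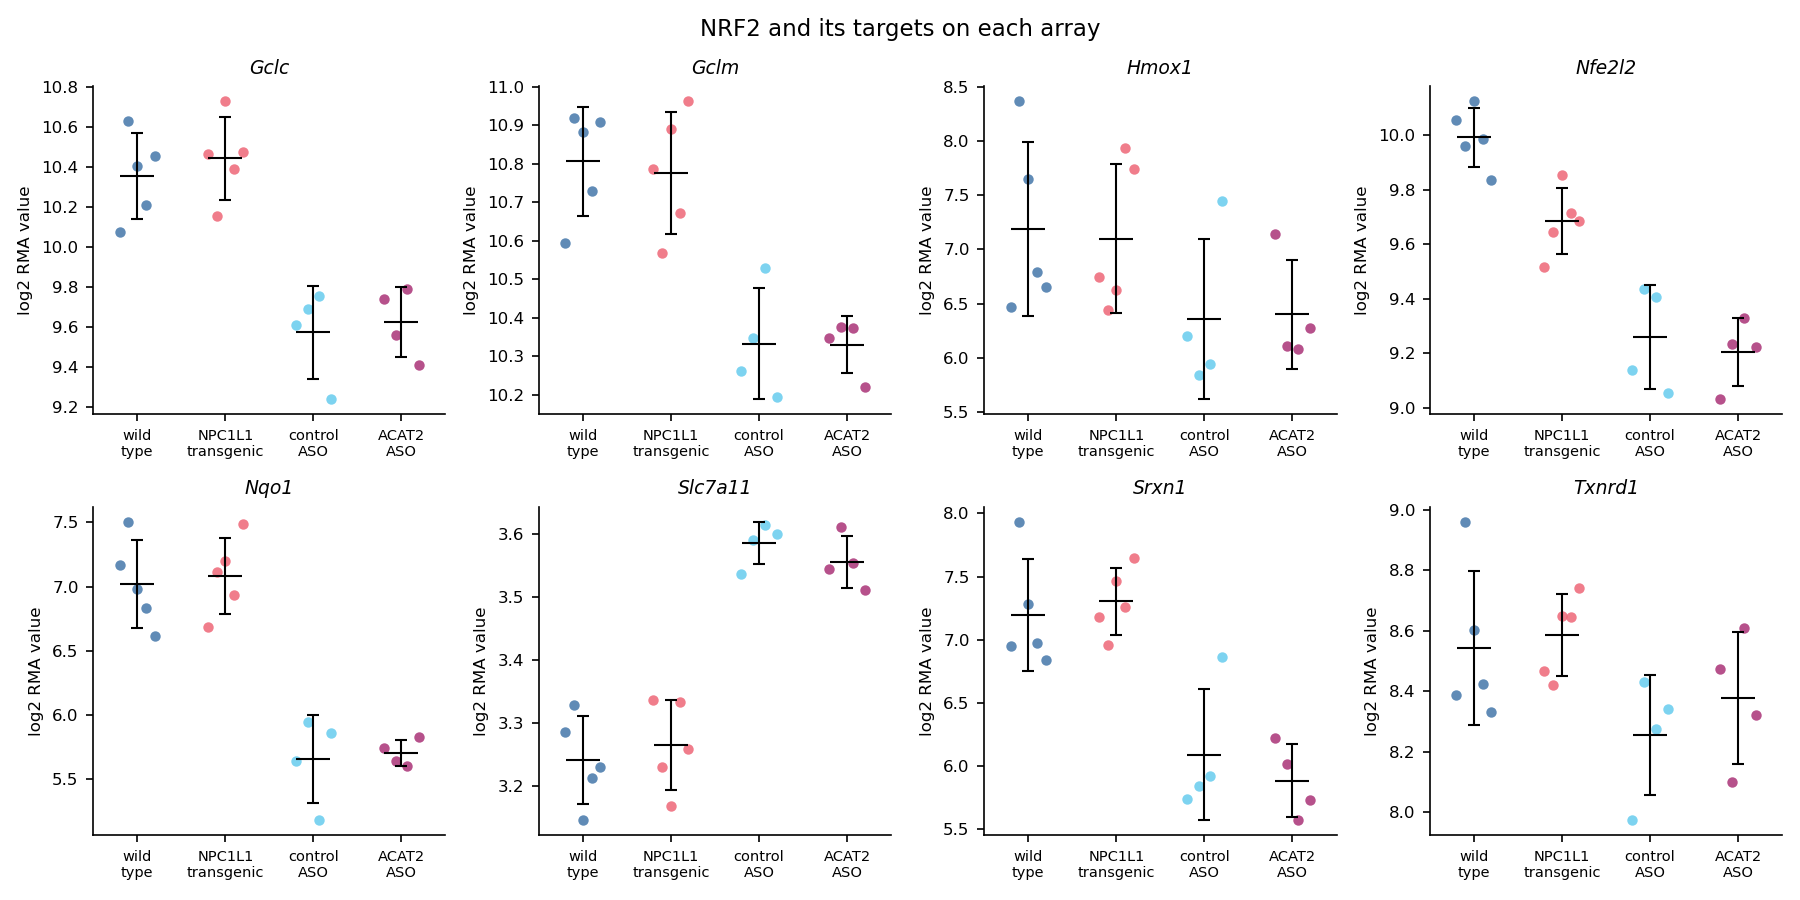
RMA log2 values of the 8 genes of the NRF2 group on each array (points) in wild-type and transgenic liver (n = 5 each) and after the control ASO and ACAT2 ASO (n = 4 each), with group mean (bar) and SD (whiskers). Levels compare only within a model; Nfe2l2 in the transgenic model is the panel where groups overlap least, and the spread of Hmox1 within each group exceeds the difference between groups.

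Other genes of the pathway were read from 7 lists, with 74 of 82 listed genes measured and genes on more than 1 list counted once. Among 19 further NRF2 targets, 15 lay above 0 in transgenic liver (median 0.08) and 16 lay below 0 after the ACAT2 ASO (median -0.07), with 0 called in either. The smallest p in transgenic liver were those of Blvrb, a biliverdin reductase, at 0.38 ± 0.13 (adjusted p = 0.283) and Me1, the cytosolic malic enzyme, at 0.43 ± 0.19 (adjusted p = 0.409). After the ACAT2 ASO they were those of Akr1b8 at -0.22 (adjusted p = 0.287) and Aox1 at -0.29 (adjusted p = 0.289). The mean of these 19 genes was 9.32 to 9.58 in wild type and 9.41 to 9.60 in transgenic liver, and 8.91 to 9.11 after the control ASO against 8.74 to 8.92 after the ACAT2 ASO, so that both pairs of groups overlapped.

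The 7 regulators and partners of NRF2 that were measured also had 0 called. Rbx1, part of the KEAP1 ubiquitin ligase, differed by 0.13 (adjusted p = 0.322) and Bach1, a repressor at NRF2 sites, by -0.17 (adjusted p = 0.474) in transgenic liver. Mafg and Mafk, small MAF partners, differed by -0.27 (adjusted p = 0.170) and -0.15 (adjusted p = 0.562) after the ACAT2 ASO.

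Ggt6, a gamma-glutamyltransferase family member, is on the list of 16 genes that supply or turn over glutathione. It was the only 1 of the 74 genes measured on the 7 lists that was called in a comparison of groups. Over all genes 0.228% were called in transgenic liver and 0.597% after the ACAT2 ASO. Ggt6 fell by 0.35 ± 0.07 after the ACAT2 ASO (adjusted p = 0.0262), while Chac2, which degrades glutathione, differed by 0.31 (adjusted p = 0.151). In transgenic liver the smallest p of this list were those of Gsr, glutathione reductase, at 0.15 (adjusted p = 0.507) and Glrx at 0.21 (adjusted p = 0.629). Among 8 genes for sulfate and UDP-sugar supply, Slc26a1, a sulfate transporter, differed by -0.58 ± 0.13 after the ACAT2 ASO (adjusted p = 0.0596) and Slc35d1 by 0.14 (adjusted p = 0.519). In transgenic liver Ugdh, which makes UDP-glucuronic acid, differed by -0.18 (adjusted p = 0.614) and Slc35d1 by -0.10.

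Of the 8 xenobiotic receptor genes and their P450 readouts, Nr1i3, which encodes CAR, differed by -0.57 ± 0.16 after the ACAT2 ASO (adjusted p = 0.111). Its readout Cyp2b10 differed by -0.42 (adjusted p = 0.554), and Cyp3a11, a readout of PXR, by 0.17 (adjusted p = 0.155). In transgenic liver Rxra differed by 0.15 (adjusted p = 0.417) and Nr1i3 by 0.15 (adjusted p = 0.779). Among 11 other conjugation genes Baat, which joins bile acids to taurine and glycine, differed by 0.28 ± 0.06 in transgenic liver (adjusted p = 0.0813) and by -0.20 ± 0.07 after the ACAT2 ASO (adjusted p = 0.204), and the difference between these effects, 0.48 ± 0.09, was called (adjusted p = 0.0245). Glyat differed by 0.19 in transgenic liver (adjusted p = 0.327). As3mt, which methylates arsenic, differed by -0.40 after the ACAT2 ASO (adjusted p = 0.263). Of 8 export pumps 0 were called, the smallest p being those of Abcc4 at 0.74 (adjusted p = 0.549) and Abcg2 at 0.24 (adjusted p = 0.608) in transgenic liver, and of Abcb1a at -0.54 (adjusted p = 0.453) and Abcc4 at -0.64 (adjusted p = 0.608) after the ACAT2 ASO.

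Whether the models differed in their effect was tested directly as transgenic effect minus ASO effect. No member was called (0 of 60), against 183 of all genes (1.07%), and 12 had an unadjusted p under 0.05, 9 of them above 0, where 15.4% of all genes met that threshold (20% of members). The smallest p was that of Sult2a8, at -0.46 (adjusted p = 0.0919), which lay below its control in transgenic liver and above it after the ACAT2 ASO. Gstm4 followed at 0.48 and Sult4a1 at 0.24 (adjusted p = 0.157 for each), then Ces1f at 0.46 (adjusted p = 0.170) and Ces1e at 0.91 (adjusted p = 0.205). Of the 17 glutathione transferases 14 lay above 0, with a median of 0.27, and Gstm2 at 1.01 and Gstt3 at 0.88 were the farthest. Each of these differences includes the values already given for the ASO comparison and is not independent of them.

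Several members varied widely between arrays of the same group. The median residual SD within groups was 0.180 for the members and 0.111 over all genes, many of which are dim and vary little. Above the low level it was 0.207 for 50 members and 0.129 for 10258 genes, and 3 members ranked among the 100 most variable of the 17097 genes. Sult2a2, a hydroxysteroid sulfotransferase of female mouse liver, had the largest residual SD of all genes measured, 2.54. It read 3.57, 8.26, 4.55, 4.24 and 5.32 on the wild-type arrays and 5.24, 8.68, 11.46, 7.39 and 3.84 on the transgenic arrays. After the control ASO it read 11.51, 11.13, 9.29 and 7.95, and after the ACAT2 ASO 4.45, 9.81, 10.94 and 11.94. Arrays of the same group thus lay far apart in each of the 4 groups, and the differences of 2.14 (interval -0.94 to 5.21) and -0.68 (interval -4.12 to 2.75) could not be told from 0. Without ACAT2 ASO 1 the ASO difference was 0.93, in the other direction, and the transgenic difference was 1.10 without transgenic 3.

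Sult3a1, an amine sulfotransferase also known from female liver, ranked 22nd among all genes by residual SD (1.17). It ranged from 4.79 to 8.32 in wild type, from 6.50 to 8.78 in transgenic liver, from 5.56 to 8.74 after the control ASO and from 4.99 to 7.24 after the ACAT2 ASO. Its difference after the ACAT2 ASO was -0.69 (interval -2.27 to 0.90), and -0.04 without control ASO 4. Sult1e1, the estrogen sulfotransferase, ranked 62nd (0.886). It stayed between 4.99 and 5.44 in wild type but ranged from 4.31 to 6.78 in transgenic liver and from 4.64 to 7.45 after the ACAT2 ASO. The arrays high for Sult2a2 and Sult1e1 within a group were partly shared: transgenic 3 and transgenic 2 were the highest of their group for each, as were ACAT2 ASO 4 and ACAT2 ASO 3. Control ASO 1 and control ASO 2 were likewise the highest for each. In wild type the highest array was wild type 2 for Sult2a2 and wild type 4 for Sult1e1. Sult3a1 was the highest of its group on transgenic 3 (8.78) but the lowest of its group on ACAT2 ASO 3 (4.99). At the other end, Mgst1 had the smallest residual SD but 1 of all genes, 0.023.

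**Figure D5:**
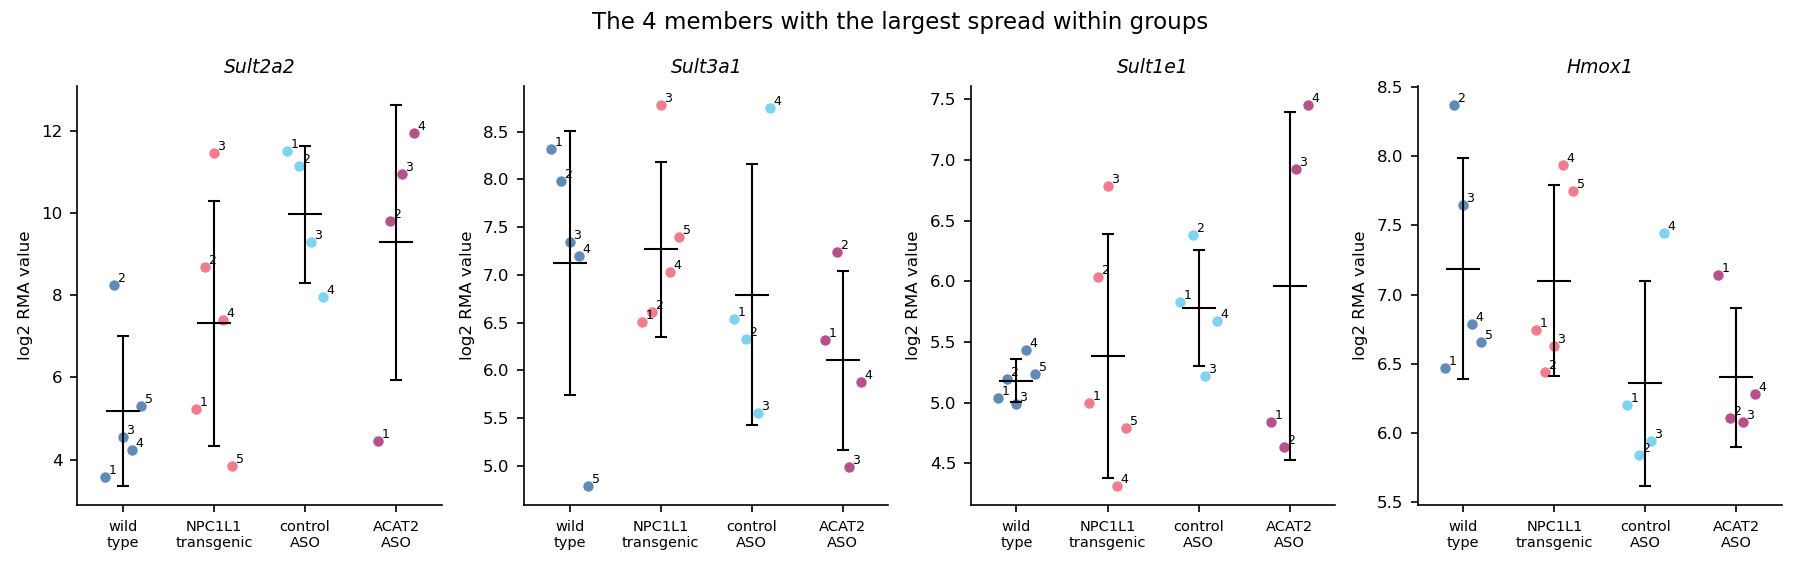
RMA log2 values of the 4 members with the largest residual SD within groups, on each array of the 4 groups (points, numbered by replicate), with the group mean (bar) and SD (whiskers, n = 5, 5, 4 and 4). Sult2a2 spans 3.57 to 11.94 over all arrays, and transgenic 3 and ACAT2 ASO 4 are the highest of their groups for both Sult2a2 and Sult1e1.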

How the data were processed

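Liver RNA of 18 samples in 4 groups was hybridised to single-colour arrays. The log2 values deposited by the authors summarise each probe set by RMA (per the submitters' processing notes). No source used here names a version or genome build. Of 45141 probe sets 104 controls were left out, and 28898 had 1 symbol, 551 several and 15588 none. For each gene the probe set of highest mean was taken. All 60 members matched the RefSeq gene table (GRCm38.p6) by Entrez number.

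Differences were tested with limma 3.58.1 in R 4.3.3, in one two-sided model of group means, with Benjamini-Hochberg adjustment over 17097 genes. Errors after ± are standard errors for differences and SDs for group means. The number of arrays limits the precision. The procedure was tested on simulated data. Members and lists were chosen with earlier results of these data known. The rule named the NRF2 group, in each family the 2 members with the smallest p and the 2 with the highest mean, members that differed 1.5-fold or whose groups were separate at an unadjusted p under 0.01, and in each list the called genes and the 2 with the smallest p. Other genes were named after their values were seen. Alternatives covered filters, normalization, probe sets, variance, weights, a replicate block and leaving out arrays. Figures were drawn with matplotlib 3.10.9.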

Additional observations from a re-analysis of the deposited data

Results flagged for a closer look

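In each group of 4 or 5 arrays the highest and lowest value of each member was compared with the rest by Dixon's test, and 14 of 240 groups had an array that stood apart, where chance gives about 1 in 20. ACAT2 ASO 1 accounted for 5 of them and control ASO 4 for 3. ACAT2 ASO 1 was low for Gstt2 (8.24, others 9.35 to 9.54), Sult1c2 (5.14, others 6.04 to 6.19), Ces1e (8.33, others 9.07 to 9.22) and Ces2a (9.55, others 9.94 to 10.01), and high for the dim gene Sult1c1 (3.85, others 3.60 to 3.62). Control ASO 4 was low for Ugt1a6a (12.30, others 12.40 each) and Ces1f (10.71, others 11.11 to 11.19), and high for Srxn1 (6.86, others 5.74 to 5.92). Control ASO 2 was low for Sult4a1 (3.60, others 3.67 to 3.68).

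In the transgenic model wild type 5 was low for Gstm1 (12.15, others 12.35 to 12.41) and transgenic 3 was low for Gstm7 (7.87, others 8.15 to 8.24). High values were those of transgenic 2 for Sult1b1 (8.67, others 8.31 to 8.41), transgenic 4 for Sult4a1 (4.30, others 3.98 to 4.06) and transgenic 5 for Ces5a (5.02, others 4.80 to 4.83).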

How the results depend on the processing

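The count of members called in transgenic liver was 0 under every alternative run. After the ACAT2 ASO it was 3 with array weights (Gstp3, Gstt2 and Ces1f, all lower), and 0 to 1 when single arrays were left out, namely Gstt2 without ACAT2 ASO 1 or ACAT2 ASO 2 and Ces1f without control ASO 4. For the difference of the effects it was 1 with array weights (Sult2a8). Calls over all genes, which were 39, 102 and 183 for the transgenic, ASO and difference contrasts, were 43, 465 and 369 with array weights and 17, 26 and 28 at an adjusted p under 0.01. They were 13 and 17 when only the arrays of a comparison were fitted, and 20 to 58, 42 to 203 and 69 to 262 with single arrays left out. Without wild type 2, ACAT2 ASO 1 and control ASO 4, a choice made after seeing the data, they were 49, 46 and 58, with 0 members called. The median change of the members stayed between -0.0139 and 0.00895 in transgenic liver and between -0.0847 and -0.0276 after the ACAT2 ASO.

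With the replicate number as a block, 0 members were called in each comparison, and the calls over all genes were 2, 18 and 12. Correlations of same-numbered arrays spanned -0.48 to 0.17 (transgenic model) and -0.48 to 0.47 (ASO model). Those of differently numbered arrays spanned -0.28 to 0.36 and -0.56 to 0.64. So few pairs cannot show whether arrays that share a number were paired.

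Of 2140 values of single members under 28 settings, 131 had the other sign, and 0 of these belonged to a member whose own interval left out 0. Most settings kept nearly all arrays, so the sign of such a member could hardly change. Single probe sets were not among these settings. In transgenic liver they lay on either side of 0 for Nfe2l2 (-0.31 and 0.22) and Sult4a1 (0.15 and -0.07).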
